A study of Caenorhabditis elegans with 2 samples.

Results

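The genes described are 10 regulators of insulin-like signalling and of stress responses in Caenorhabditis elegans, of 19973 protein-coding genes on the nuclear chromosomes. They are daf-2, age-1, akt-1, daf-16, pqm-1, skn-1, hsf-1, atf-6, xbp-1 and hlh-30. They were chosen by name with peak values of these same lists already known, so their counts and signals are a description and no test was made on them. A gene was given every peak whose summit, the base of strongest signal, lay between 2000 bp upstream of an annotated transcript 5′ end and the end of the gene. The data came from chromatin immunoprecipitation followed by sequencing (ChIP-seq) of EGRH-3, an EGR-family transcription factor with zinc fingers. All samples formed 1 group: whole young adults of strain RW12196 at 65 h, synchronised by starving L1 larvae after bleaching, in which CRISPR had placed a TY1, EGFP and 3xFLAG tag on egrh-3 at its own locus on chromosome IV (allele st12196). An antibody against GFP was used on 2 biological replicates, with chromatin sonicated to 200 to 800 bp. Whole animals mix all tissues, the tagged animals came from 1 strain, and peak lists of an untagged strain were not analysed here, so the background at these genes was not measured. The lists hold no expression values, so stage and tissue were not checked against marker genes.

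In worms, insulin-like peptides bind the receptor DAF-2, which acts through the phosphoinositide 3-kinase catalytic subunit AGE-1 and kinases that include AKT-1 to keep the forkhead factor DAF-16 out of the nucleus. Animals with low DAF-2 activity live long and resist stress, and DAF-16, PQM-1, SKN-1, HSF-1 and HLH-30 each carry some of that response. PQM-1 is a zinc finger factor that moves opposite to DAF-16, SKN-1 is the Nrf-like regulator of detoxification, and HSF-1 drives heat shock chaperones. ATF-6 and XBP-1 act in the unfolded protein response of the endoplasmic reticulum, and HLH-30 is the TFEB-like regulator of autophagy and lysosome genes.

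The sequences around 7 of the 10 summits and around the strongest region of age-1 are shown first, because they differed in what they contained, from runs of a single base to GA repeats. The 3 daf-16 summits are not printed: the one 1612 bp upstream of a 5′ end held a GA repeat, and the other 2 held none of the patterns marked here. Each is 101 bases centred on a summit, read 5′ to 3′ on the plus strand of the RefSeq genome for WBcel235, which is the ce11 build of the peak lists. Capitals mark runs of 8 or more G or of 8 or more C, GA repeats of 8 bases or more, and the hexamer CACGTG. Shorter GA repeats, as in the hlh-30 stretch 230 bp upstream of a 5′ end, stay in lower case. These patterns were chosen after the sequences had been seen.
daf-2, intron, far summit, chrIII:3034607-3034707, plus strand: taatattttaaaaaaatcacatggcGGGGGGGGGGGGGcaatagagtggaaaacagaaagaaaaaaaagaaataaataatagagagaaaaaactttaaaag
daf-2, intron, summit in linc-143, chrIII:3037382-3037482, plus strand: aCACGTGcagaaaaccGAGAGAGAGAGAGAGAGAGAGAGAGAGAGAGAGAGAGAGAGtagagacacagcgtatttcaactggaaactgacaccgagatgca
atf-6, upstream summit, chrX:12480595-12480695, plus strand: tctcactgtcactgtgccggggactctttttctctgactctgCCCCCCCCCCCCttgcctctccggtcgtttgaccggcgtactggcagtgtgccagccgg
hlh-30, intron, 2797 bp downstream of a 5′ end, chrIV:4024216-4024316, plus strand: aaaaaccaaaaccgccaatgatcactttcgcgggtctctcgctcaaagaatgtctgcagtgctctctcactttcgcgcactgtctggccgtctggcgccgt
hlh-30, intron, 947 bp downstream of a 5′ end, chrIV:4026066-4026166, plus strand: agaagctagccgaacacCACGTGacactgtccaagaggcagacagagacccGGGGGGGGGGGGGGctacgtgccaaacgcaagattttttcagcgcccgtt
hlh-30, intron, 230 bp upstream of a 5′ end, chrIV:4028307-4028407, plus strand: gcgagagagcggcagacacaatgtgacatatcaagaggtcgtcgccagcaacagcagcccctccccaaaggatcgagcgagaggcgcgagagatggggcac
hlh-30, upstream of the first 5′ end, chrIV:4035050-4035150, plus strand: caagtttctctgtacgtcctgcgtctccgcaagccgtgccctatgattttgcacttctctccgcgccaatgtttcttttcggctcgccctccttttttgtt
age-1, region outside the thresholded lists, chrII:11528123-11528223, plus strand: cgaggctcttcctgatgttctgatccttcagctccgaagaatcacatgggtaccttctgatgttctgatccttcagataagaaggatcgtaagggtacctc
The far daf-2 summit held a run of 13 G and the atf-6 summit a run of 12 C. The hlh-30 summit 947 bp downstream of a 5′ end held a run of 14 G together with CACGTG. The other daf-2 summit held a long GA repeat and CACGTG. The remaining hlh-30 stretches and the age-1 stretch held none of the marked patterns.

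EGRH-3 peaks stood at 4 of the 10 regulators in the conservative list, the deposited list that bears that name and the main set here, against 10% of all protein-coding genes with a summit in the same kind of window. These were the receptor gene daf-2, the forkhead gene daf-16, the unfolded protein response gene atf-6 and the autophagy regulator hlh-30. Together they held 10 of the list's 2194 nuclear summits, of which hlh-30 had 4, daf-16 had 3, daf-2 had 2 and atf-6 had 1. The kinase genes age-1 and akt-1, and the factors pqm-1, skn-1, hsf-1 and xbp-1, had none. In the larger thresholded list the same 4 regulators had a summit, against 13.9% of all genes. In the thresholded list of replicate 1 they were again these 4, against 12% of all genes. In that of replicate 2 there were 3, against 7.08% of all genes, and daf-16 was the gene without one. The same 3 regulators, daf-2, atf-6 and hlh-30, were in the lists of both replicates, against 5.69% of all genes. The ranked list, which keeps weak regions with no threshold, had a region at all 10 regulators, against 51.6% of all genes, so presence in it says little about a gene.

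Long genes offer more room for summits, and the regulators were long. Their windows had a median of 10536.5 bp, against 4027 bp over all genes, and the 3 longest were those of daf-2 (48333 bp), daf-16 (28206 bp) and hlh-30 (22159 bp), all 3 with summits. Among genes whose windows lay between the shortest and the longest of the 10, 11.1% had a summit, beside the same 4 of 10 regulators. With windows of 10000 bp or more, 3 of 5 regulators had a summit, against 25.5% of all genes of that length, and skn-1 and hsf-1 were those without. With windows under 10000 bp, 1 of 5 regulators had a summit, atf-6, against 8.77% of all such genes. Genes with several summits were rare: hlh-30 was 1 of 28 genes with 4 or more summits (0.14% of all genes), and hlh-30 and daf-16 were 2 of 79 genes with 3 or more. Among genes with windows of 10000 bp or more, 42 (2.78%) had 3 or more and 17 (1.13%) had 4 or more. Per length, the regulators' windows, 151003 bp in all, held 0.662 conservative summits per 10 kb, against 0.219 over the nuclear genome. The genome value includes sequence outside gene windows, and no density over all gene windows is given, so these values are not like for like.

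**Figure D1:**
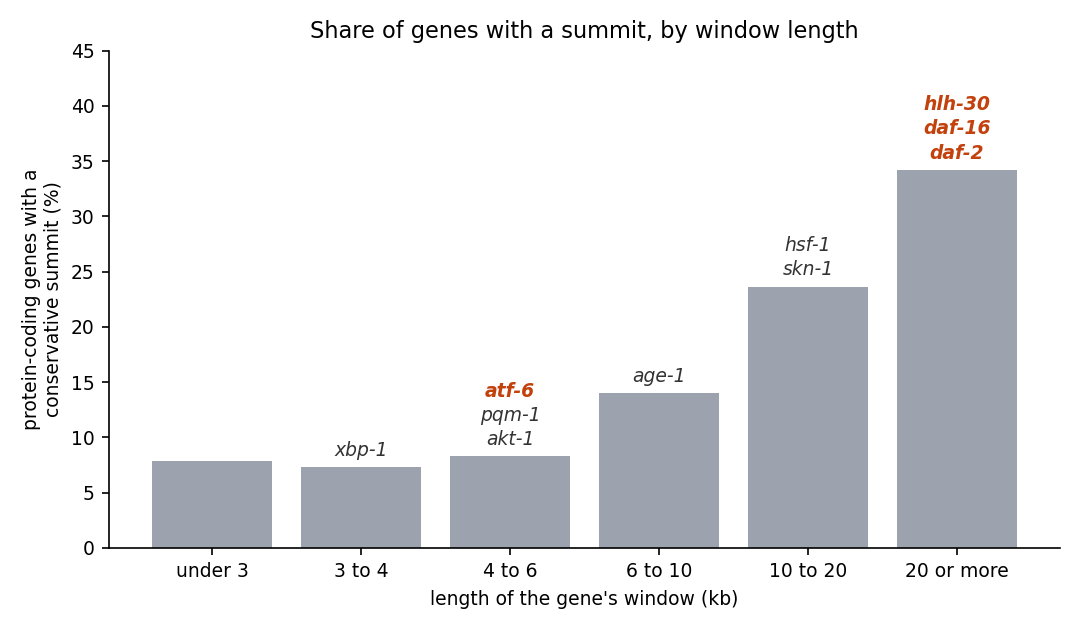
Share of all protein-coding genes with a conservative summit (vertical axis, %), by length of the gene's window (horizontal axis, kb), with the regulators written above the bar of their length and those with a summit in bold orange. The share was 7.86% for windows under 3 kb and 34.2% for windows of 20 kb or more, where daf-2, daf-16 and hlh-30 lie.

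The insulin-like receptor gene daf-2 (WBGene00000898, III, 2994514 to 3040846, minus strand) had 2 conservative summits, both in an intron between its first and its second annotated 5′ end. The summit at III 3037432 (interval 3037232 to 3037631) had a signal of 124, rank 1261 of 2194, and lay 3414 bp downstream of the first 5′ end, that of Y55D5A.5c.1. Signal is the authors' measure of peak strength, with no stated scaling, so it was read within a list; the median of the conservative list was 139.8 over a range of 10.1 to 5852. At this summit the signal was 73.2 in the list of replicate 1 (rank 1660 of 2850) and 53.2 in that of replicate 2 (rank 1106 of 1439). This summit also lay in the exon of linc-143, a long noncoding RNA gene on the same strand, 111 bp from its 5′ end. The summit at III 3034657 (interval 3034457 to 3034856) had a signal of 122, rank 1294, and lay 6189 bp downstream of the first 5′ end and 5857 bp upstream of the next, that of Y55D5A.5a.1. Replicate 1 gave 67.3 there (rank 1824) and replicate 2 gave 56.6 (rank 999). Both daf-2 summits were below the median signal of the conservative list and of the lists of replicate 1 (83.1) and replicate 2 (67.6), and above that of the larger list (113). Both replicates placed them within 25 bp of the conservative position. Their global irreproducible discovery rates (IDR), the estimated share of irreproducible peaks at that rank or better, were 0.00134 and 0.00142, under the 0.01 at which the lists were thresholded. No conservative summit lay beyond the 5′ end of Y55D5A.5a.1, where 5 further 5′ ends of daf-2 are annotated.

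The kinase genes age-1 and akt-1 had no thresholded peak. At age-1 (WBGene00000090, II, 11519328 to 11527054, minus strand) a region with its summit at II 11528173 had a signal of 153, rank 1190 of 26716 in the ranked list behind the conservative list, and a global IDR of 0.000759. It lay 1119 bp upstream of the 5′ end of B0334.8a.1, inside an intron of mdt-8, a gene for a Mediator subunit. Replicate 1 had a signal of 66.9 there with a global IDR of 0.00182, and replicate 2 had 85.1 with 0.000423. The region was past the threshold in all 4 ranked lists and in none of the 4 thresholded lists. Its interval was 99.75% soft-masked, that is, written in lower case as repeat sequence in the genome file. Such masking was common among regions past the score that the conservative list left out: the median was 99.1% over 201 of them, against 17.8% over the 2194 kept. Whether masking had any part in their absence was not tested. At akt-1 (WBGene00000102, V, 10248905 to 10252845, plus strand) the strongest region, 235 bp upstream of a 5′ end, had a signal of 35.8, rank 9119, with a global IDR of 0.344. Replicate 2 had a signal of 21.2 there and replicate 1 had no region at that summit.

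The forkhead factor gene daf-16 (WBGene00000912, I, 10750498 to 10776703, plus strand) had 3 conservative summits, all in its introns and none in the thresholded list of replicate 2. The strongest, at I 10765830 (interval 10765782 to 10765882), had a signal of 181, rank 755, and lay 2176 bp downstream of the 5′ end shared by R13H8.1l.1 and R13H8.1m.1. Replicate 1 gave 137 there in its thresholded list (rank 721), while replicate 2 had 47.6 in its ranked list alone, with a global IDR of 0.025. The summit at I 10769896 (interval 10769696 to 10770095) had a signal of 122, rank 1291, 1612 bp upstream of the 5′ end of R13H8.1a.1. Replicate 1 gave 54.0 there (rank 2314), and replicate 2 had 67.0 in its ranked list with a global IDR of 0.252. That signal of replicate 2 was above those it gave at 5 of the 7 summits it kept, so at this place signal and IDR ranked the region differently. The summit at I 10757185 (interval 10756985 to 10757384) had a signal of 101, rank 1634, 5918 bp upstream of the 5′ end shared by R13H8.1b.1 and R13H8.1c.1. It was in the thresholded list of neither replicate: the ranked lists gave 51.7 in replicate 1 (global IDR 0.559) and 57.3 in replicate 2 (global IDR 0.0113). Its global IDR in the conservative list, 0.00262, was the highest of the 10 summits and so the nearest inside the threshold. This summit lay 18 bp from the 5′ end of R13H8.4 and the one at 10769896 lay 314 bp from that of R13H8.5, both noncoding RNA genes on the opposite strand. Of the 22 regions that the ranked list of replicate 2 held at daf-16, 0 passed 0.01, against 2 of 28 in that of replicate 1.

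The other regulators of the DAF-2 response, pqm-1, skn-1 and hsf-1, had weak regions only. At hsf-1 (WBGene00002004, I, 11953507 to 11963085, minus strand), the heat shock factor gene, the strongest region lay 101 bp upstream of the first 5′ end with a signal of 55.6, rank 4809. In the ranked list behind the conservative list, its global IDR of 0.0324 was the nearest outside the threshold among the strongest regions of the regulators without a peak. The other ranked list gave 0.54 for the same region. Replicate 1 had a signal of 30.4 there and replicate 2 had 30.9. At skn-1 (WBGene00004804, IV, 5651039 to 5660384, minus strand) the strongest region lay in an intron, 1686 bp upstream of the 5′ end of T19E7.2c.1 and 27 bp from that of the noncoding RNA gene T19E7.26, with a signal of 57.3, rank 4587, and a global IDR of 0.0513. The other ranked list gave 0.0184 for this region, so there skn-1 was nearer the threshold than hsf-1. Replicate 1 had 30.7 and replicate 2 had 25.2. At pqm-1 (WBGene00004096, II, 11150391 to 11152595, minus strand) the strongest region lay 170 bp upstream of the only 5′ end with a signal of 34.5, rank 9634, and a global IDR of 0.509. Replicate 1 had 8.51 and replicate 2 had 21.8. The nearest conservative summit was 5289 bp from pqm-1, 163836 bp from skn-1 and 76844 bp from hsf-1. The skn-1 window was not empty of weak regions, since it held 15, or 13.2 per 10 kb, the highest density of the 10 regulators, against 2.66 per 10 kb over the nuclear genome. This genome value too includes sequence outside gene windows.

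Of the 2 genes of the unfolded protein response, atf-6 had a strong peak and xbp-1 none. At atf-6 (WBGene00000222, X, 12480948 to 12484904, plus strand) the only summit, at X 12480645 (interval 12480426 to 12480820), lay 303 bp upstream of the only annotated 5′ end and in no other gene. It had a signal of 803, rank 72 of 2194, the strongest of the 10 summits. Replicate 1 gave 603 (rank 70 of 2850) and replicate 2 gave 206 (rank 99 of 1439), with summits 22 bp and 6 bp away. Its global IDR was 1e-05 in the conservative list and in the ranked list of each replicate. The strongest hlh-30 summit had the same value in the conservative list, and no region of the regulators had a lower one. The value may be a floor, so its sameness across lists was not read as agreement. No weaker region accompanied the atf-6 summit, since each of the 4 ranked lists had 1 region in the atf-6 window. The nearest other conservative summit was 28253 bp away. At xbp-1 (WBGene00006959, III, 4193809 to 4195358, plus strand) the strongest region lay 48 bp upstream of the first 5′ end with a signal of 46.3, rank 6213, and a global IDR of 0.0917. Replicate 1 had 21.3 there and replicate 2 had 29.7. The nearest conservative summit to xbp-1 was 3641 bp away.

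The autophagy and lysosome regulator hlh-30 (WBGene00020930, IV, 4014793 to 4034951, minus strand) had the most summits, 4, and all were in the lists of both replicates. The strongest, at IV 4028357 (interval 4028160 to 4028549), had a signal of 663, rank 103, and lay in an intron 230 bp upstream of the 5′ end shared by W02C12.3b.1 and W02C12.3c.1. Replicate 1 gave 516 there (rank 90) and replicate 2 gave 149 (rank 182). After atf-6 it was the strongest of the 10 summits in each of these lists. Further into the gene the summit at IV 4026116 (interval 4026004 to 4026234) had a signal of 194, rank 683, and lay 947 bp downstream of the 5′ end shared by W02C12.3d.1 and W02C12.3e.1. Replicate 1 gave 140.3 (rank 697) and replicate 2 gave 52.4 (rank 1124). The summit at IV 4024266 (interval 4024165 to 4024370) had a signal of 187, rank 726, and lay 2797 bp downstream of the same 5′ end. Replicate 1 gave 121 (rank 854) and replicate 2 gave 66.8 (rank 740), so the order of these summits differed between the replicates. The summit at IV 4035100 (interval 4034900 to 4035299), with a signal of 134 and rank 1148, lay 149 bp upstream of the first 5′ end, that of W02C12.3d.2, and replicates 1 and 2 gave 76.6 (rank 1580) and 53.4 (rank 1096). The summit just upstream of the internal 5′ end of the b and c transcripts was thus stronger than the one at the first 5′ end in the conservative, larger and replicate lists.

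The downstream part of hlh-30 had peaks in some lists only. The larger list added summits at IV 4016983 (signal 103, rank 1836), 4018909 (92.2, rank 2186), 4020094 (71.7, rank 2900) and 4024466 (27.6, rank 3172). The first 2 lay in coding exons, the one at 4018909 being 130 bp downstream of the 5′ end of W02C12.3a.2, within a cluster of transcript 5′ ends. Replicate 1 had its own peaks near them, with signals of 91.8 at 4016969 and 98.6 at 4018890, while the ranked list of replicate 2 had no region over either. Replicate 1 also listed a summit at 4019091 with a signal of 7.46, rank 2847 of 2850. At daf-16 the larger list added 1 summit, at I 10757385 with a signal of 23.6, rank 3187. All 10 conservative summits were in the larger list at the same positions.

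**Figure D2:**
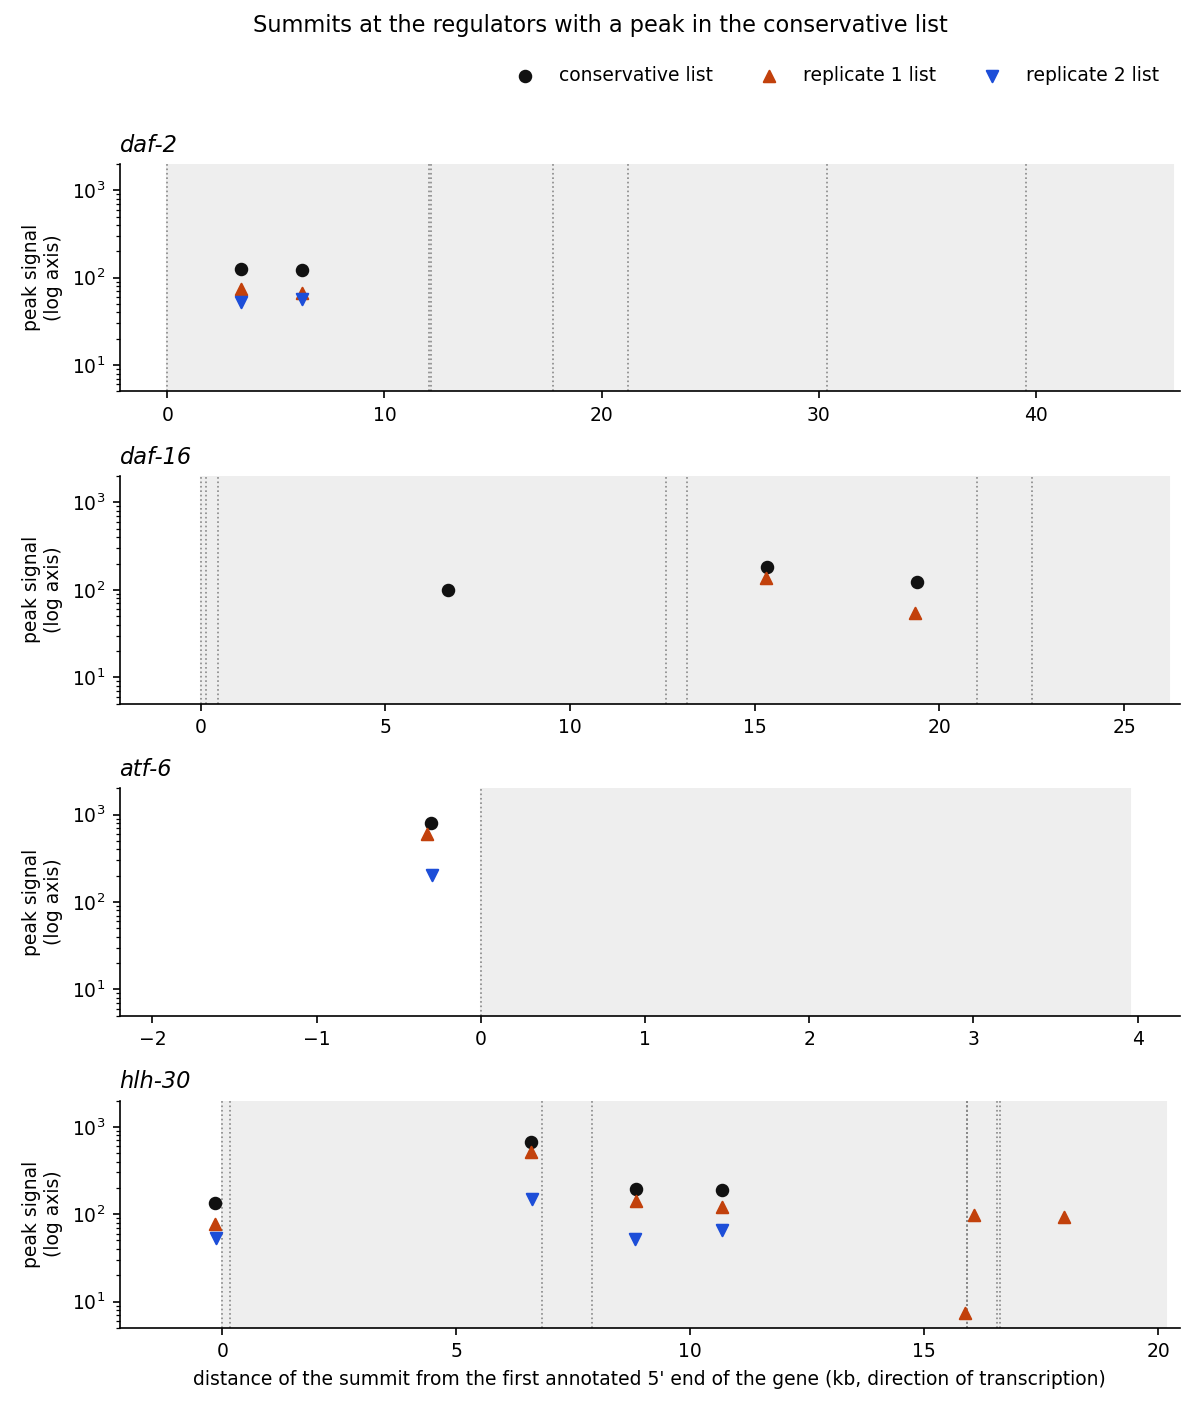
Peak signal (vertical log axis) against distance from the first annotated 5′ end in kb in the direction of transcription (horizontal axis) at daf-2, daf-16, atf-6 and hlh-30, for the conservative list (black circles), replicate 1 (orange triangles) and replicate 2 (blue triangles); grey marks the gene and dotted lines the annotated 5′ ends. The peaks of daf-2 and of hlh-30 at conservative summits have all 3 symbols, daf-16 has none from replicate 2, and the strongest signals are 803 at atf-6 and 663 at hlh-30.

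**Figure D3:**
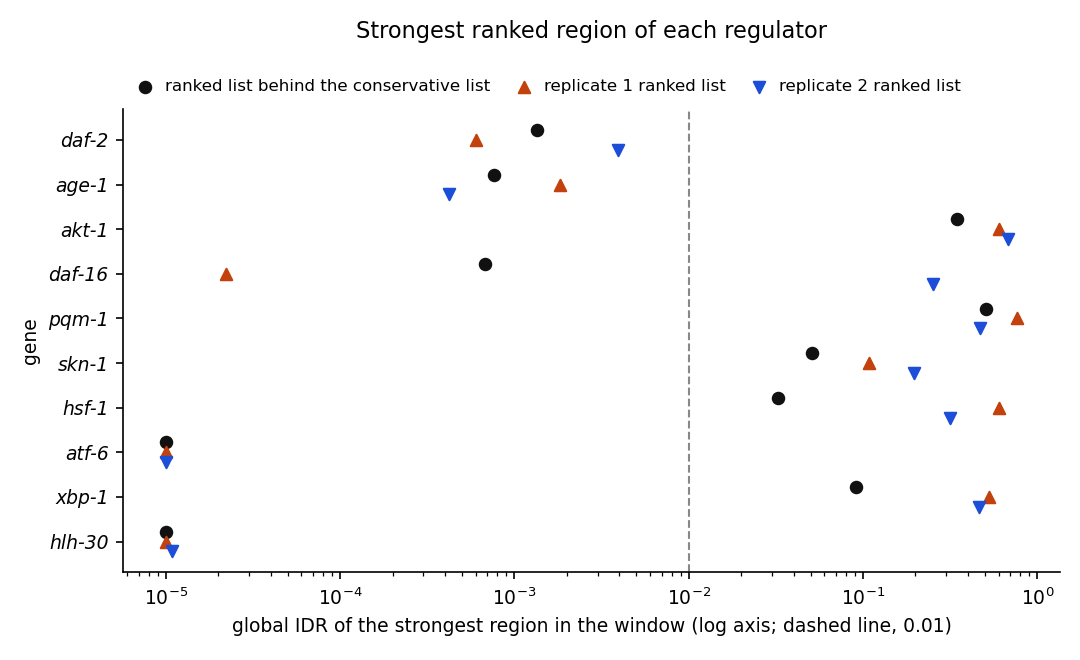
Global IDR of the region with the strongest signal in each regulator's window (horizontal log axis; dashed line, 0.01), in the ranked list behind the conservative list and in the ranked list of each replicate, with genes down the vertical axis; the strongest region can differ between lists. The daf-2, age-1, atf-6 and hlh-30 points lie left of the line in all 3 lists, daf-16 crosses it in replicate 2, and the other 5 genes lie to its right.

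Each replicate's own thresholded list was searched within 100 bp of the regulators' summits. Replicate 1 held 9 of the 10 (90%), against 79.9% of all 2194 conservative summits. Replicate 2 held 7 of the 10 (70%), against 54.2%, and both held 7 of the 10, against 46.6%. The 3 missing from replicate 2 were the 3 daf-16 summits. The signal in replicate 1 over that in replicate 2 had a median of 1.62 over the 10, with 0.807 as the lowest, at daf-16, and 3.47 as the highest, at the strongest hlh-30 summit. Over all 2070 summits with a signal from both the median was 1.64, with quartiles of 1.08 and 2.70, so the replicates differed at the regulators about as they did elsewhere. The signals of the replicates carry no stated common scale, and read depth is unknown, so this ratio was not read as a difference in binding. With 2 replicates the distance between them is the only measure of error for each signal.

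**Figure D4:**
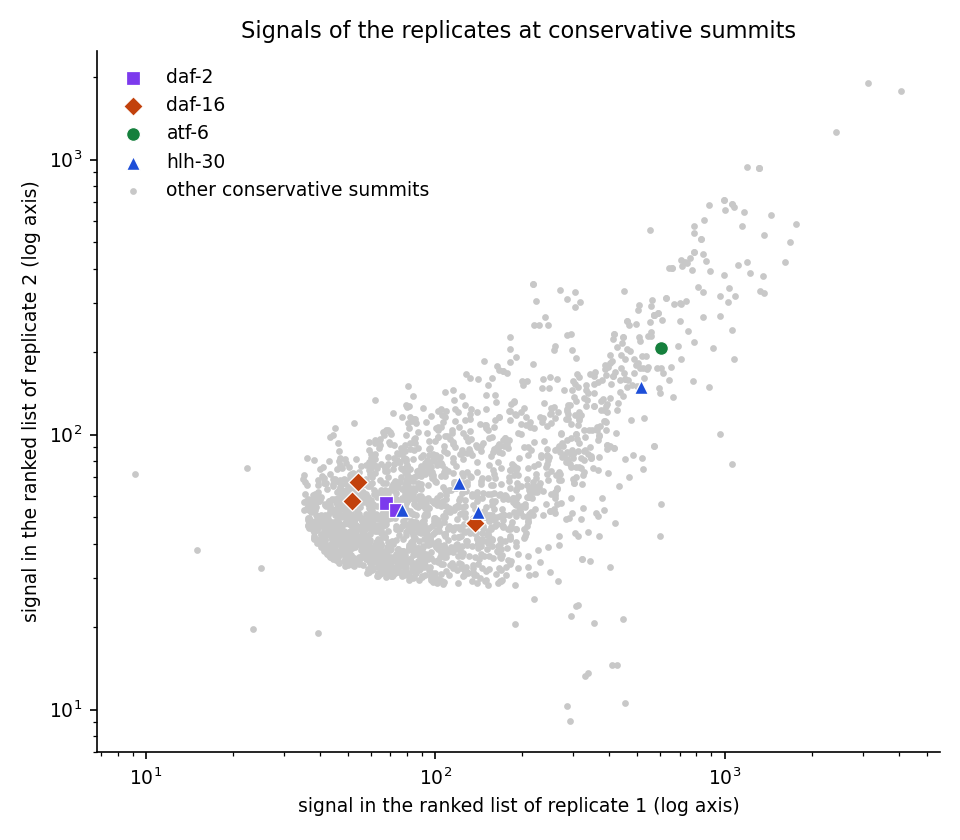
Signal in the ranked list of replicate 2 (vertical log axis) against that of replicate 1 (horizontal log axis) at conservative summits, with the 10 summits of daf-2, daf-16, atf-6 and hlh-30 in colour and the other summits in grey. The atf-6 point (603 and 206) and the strongest hlh-30 point (516 and 149) lie in the upper part of the cloud, and the other 8 lie in its dense lower part.

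Most of the regulators' summits lay inside the genes. Of the 10, 8 were in introns of the regulator itself, 2 were upstream of every 5′ end, at atf-6 and hlh-30, and none was in a coding exon. The windows take in 2000 bp upstream but whole genes, of 46333 bp at daf-2, 26206 bp at daf-16 and 20159 bp at hlh-30. No share over all conservative summits is given for these positions, so they were not read as a trait of the regulators. Within 500 bp of one of the gene's own 5′ ends lay 3 of the 10, those at atf-6 and the first and strongest of hlh-30. At 4 of the 10, both daf-2 summits and those of daf-16 at 10757185 and 10769896, the nearest annotated 5′ end belonged to a noncoding RNA gene. In 2 of these, at linc-143 and R13H8.4, the summit was in its exon. The lists do not assign peaks to genes, so to which gene such a summit belongs was not tested.

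The 101 bases around the summits held none of the strings searched as letters read by EGR-type zinc fingers. Other forms of such sites were not searched for. GTGGG, the shared start of GTGGGCG and GTGGGTG, was searched on both strands and was within 50 bp of 0 of the 10 summits, against 19.1% of all conservative summits and 7.51% of windows of the same length along the genome. GTGGGCG and GTGGGTG, which contain it, were likewise at 0 of the 10, against 1.91% and 1.41% of all summits and 0.604% and 0.515% of genome windows. The zero rests on the window: within 100 bp, GTGGG was at 4 of the 10 summits, against 33.3% of all. The other patterns were chosen after the sequences were seen. A run of 8 G, or of 8 C on the other strand, was at 3 of the 10 summits, against 3.97% of all summits and 0.244% of genome windows, and all 3 runs reached 12 bases or more. GAGAGAGA was at 2 of the 10, one at daf-2 and one at daf-16, against 5.38% of all summits and 0.664% of genome windows. CACGTG, the letters bound by HLH-30-type and other basic helix-loop-helix proteins, was at 2 of the 10, one at daf-2 and one at hlh-30 itself, against 3.14% and 1.67%. GTAAACA, read by DAF-16, CTTATCA, linked to PQM-1, GAANNTTC, part of the heat shock element, and TGACGTGG, read by ATF6-type factors in mammals, were at 0 of the 10, against 0.866%, 0.775%, 4.28% and 0.137% of all summits. A match or its absence describes these letters in this window and says nothing of a factor. GC content within 50 bp had a median of 54.0% over the 10 (31.7% at the far daf-2 summit to 64.4% at atf-6), against 57.4% over all summits, with quartiles of 50.5% and 62.4%.

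Around the 10 regulators, 236 other genes of the same pathways were taken from 14 lists. A conservative summit was in the window of 53 of them (22.5%), against the 10% of all genes given above, with a median window of 4508 bp against 4027 bp. The counts differed among the lists, and the lists differ in window length too. Of insulin-like peptide genes, the ligands of DAF-2, 0 of 13 had a summit, with a median window of 2835 bp. Of kinases, phosphatases and adaptors of the insulin-like pathway, 5 of 18 did. Among these was pdk-1, a kinase upstream of AKT-1, with a signal of 453, rank 205, where replicate 1 gave 349 and replicate 2 gave 104. The peak at pdk-1 was thus stronger than those of daf-2 and daf-16. Of cofactors and regulators of DAF-16, 8 of 17 had a summit, the highest share of the 14 lists at 47.1%, with a median window of 8014 bp. They were led by din-1, a corepressor (514, rank 161), and daf-12, a nuclear hormone receptor (454, rank 203), and replicate 2 had no region at the daf-12 summit. Of genes that DAF-16 and PQM-1 are known to regulate, 1 of 19 had one, the glycolytic gene gpd-2 (144). Of TOR and AMPK signalling genes, 3 of 19 did, led by aakg-1, an AMPK subunit (196), and rict-1, a TOR complex subunit (93.8). The gpd-2 and rict-1 summits each also lay in an exon of another protein-coding gene.

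In the unfolded protein response of the endoplasmic reticulum, a summit was at 9 of 22 target genes (40.9%), against 10% of all genes. They were led by pdi-2, a protein disulfide isomerase (signal 581, rank 130), and dnj-28, a DnaJ-type chaperone partner (507, rank 163). The pdi-2 summit also lay in the exon of a noncoding RNA gene. Of 9 sensors and signalling genes beside atf-6 and xbp-1, 1 had a summit (11.1%, near the share of all genes), gcn-1, a regulator of translation under stress (137). Of genes of the mitochondrial unfolded protein response, 4 of 11 (36.4%) did, led by hsp-60, the mitochondrial chaperonin (206), and jmjd-1.2, a histone demethylase (166). Of heat shock regulators other than hsf-1, 5 of 11 (45.5%) did, led by ddl-2, which binds HSF-1 in an inhibitory complex (316), and ahsa-1, an activator of HSP90 (121). Of heat shock chaperones, 1 of 12 did (8.33%, near the share of all genes), the constitutive Hsp70 gene hsp-1 (316). Differences between the lists were not tested.

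Of regulators of SKN-1, 4 of 16 (25%) had a summit, against 10% of all genes. The strongest of all pathway genes was here, at tir-1, the TIR-domain adaptor of the p38 pathway, with a signal of 1089 and rank 48, where replicate 1 gave 554 and replicate 2 gave 555 on their own scales. The kinase gene sek-1 of the same pathway had 177, at a summit that also lay in an intron of another protein-coding gene. Of SKN-1 targets, 2 of 19 had a summit (10.5%, near the share of all genes), the dehydrogenase gene dhs-8 (126) and the thioredoxin reductase gene trxr-1 (102). The dhs-8 summit also lay in the exon of a noncoding RNA gene. In the thresholded lists of both replicates were 0 of these 19 targets, against 5.69% of all genes. Of autophagy and lysosome genes, 7 of 40 (17.5%) had a summit, led by atg-9, a membrane protein of autophagosome formation (265), and epg-9, an autophagy gene of the initiation complex (126). Among the 7, vha-1 and vha-2 were counted on the same summit, at III 9780819 (85.6). Of the 40, 2 were in the thresholded lists of both replicates, near the 5.69% of all genes. Of regulators and partners of HLH-30, 3 of 10 (30%) had a summit, led by the basic helix-loop-helix genes hlh-11 (336) and mdl-1 (261). In the thresholded lists of both replicates were 34 of the 236 genes, against the 5.69% of all genes given above.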

How the data were processed

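The members and the lists of pathway genes were chosen with earlier results of these data known. The peak lists, 4 of the series and 2 for each of 2 replicates, are on ce11, per the file headers. The authors' deposited signal, −log10 q-value and score were used as given, and the score follows the IDR up to a cap of 1000, with 830 standing for a global IDR of 0.01. The aligner and peak caller were not given in the sources used here, and read depth is unknown. The control library named in the labels was left out. Peaks of all 8 lists were ranked by signal. Genes came from the Ensembl release 115 annotation of WBcel235 and sequence from RefSeq. A summit of another list matched within 100 bp, and a replicate's signal was the strongest region of its ranked list covering the conservative summit. All 10 members are named, with the 2 strongest bound genes of each pathway list and genes whose 5′ end is nearer; 1 gene that this rule names is not reported here. Of 242 pathway symbols, 236 matched. No test between conditions was possible with 1 group. Window counting was tested on simulated data. Python 3.11.15, numpy 2.4.6 and pandas 2.3.3 were used.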

Additional observations from a re-analysis of the deposited data

How the results depend on the processing

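The count of 4 regulators with a summit was 4 under the larger list and 3 to 4 with each replicate alone. It was 3 at a global IDR under 0.001 or a signal above the median. Under reaches of 1000 or 500 bp, midpoints, interval overlap and the nearest protein-coding 5′ end it was 4. That last setting ignored noncoding RNA genes. Their 5′ ends were nearer at both daf-2 summits and at the daf-16 summits at 10757185 and 10769896. Of all genes, 4.8% had a summit at that IDR and 5.46% above the median signal. Their share was 8.12% and 6.94% under the 1000 and 500 bp reaches. It was 10% for midpoints, 10.6% for overlap and 6.91% for the nearest protein-coding 5′ end. The count of regulators was 10 with every ranked region (51.6% of all genes). It was 2 with 1000 bp upstream to 200 bp downstream of 5′ ends (4.86%) and 2 without gene bodies (5.99%). The 10 summits became 109, 3 and 2 under those settings, 5 at the stricter IDR, 5 above the median signal, and 7 to 12 with each replicate alone. Regulators in both replicates' lists numbered 3, against 5.69% of all genes, and 10 in the ranked lists, against 44.1%. With 1000 bp upstream to 200 bp downstream of 5′ ends they were 2, atf-6 and hlh-30, against 2.59% of all genes. Without gene bodies they were the same 2, against 3.3%, so daf-2 was counted through its gene body. Ranked regions with a score of 830 or more, chosen after seeing the data like the split of windows at 10000 bp, gave 5 regulators and 11 summits. The regulator added was age-1, and 10.2% of all genes had such a region. The 53 pathway genes became 180, 25, 26 and 31 with every ranked region, the stricter IDR, the higher signal and the promoter window, and 45 to 59 with each replicate alone. The shares of all genes given above for these settings apply to these counts too. GTGGG, at 0 summits, was at 4 within 100 bp and at 2 of 15 in the larger list. With each replicate alone the strongest daf-2 signal was 56.6 to 73.2, against 124 in the conservative list, that of atf-6 206 to 603 against 803, and that of hlh-30 149 to 516 against 663; these lists share no stated scale. No paired analysis was possible because there was 1 group. Unknown depth and an unmeasured untagged background limit every count.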
